A study of Bos taurus and other sequences with 9 samples.

Results

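StemPRO, a defined serum- and xeno-free medium for mesenchymal stem cells, was sequenced as 1 sample beside 2 samples of medium with ultrafiltrated fetal bovine serum (UF-dFBS). The RNAs described here were those with at least 10 raw counts in StemPRO, which were 189 of the 1786 RNAs listed, made up of 23 of 425 miRNAs and 166 of 1361 loci of other small ncRNAs. Of these loci, 155 were tRNA, 10 were snRNA and 1 was a snoRNA, and no Y RNA or piRNA locus reached 10 counts. These 189 RNAs held 4987 of the 6679 counts of StemPRO on the listed RNAs, or 74.7%.

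The study compared RNA from extracellular vesicle (EV) preparations of culture media in 9 samples. The authors did not show that this RNA was in vesicles and consider a mixture with non-vesicular RNA more likely. UF-dFBS-1 and UF-dFBS-2 were DMEM/F12 with GlutaMAX and with serum that had passed centrifugal filters, the first from Sigma-Aldrich serum and the second from Gibco serum, plus penicillin-streptomycin. StemPRO was the MSC serum-free basal medium of Gibco with its xeno-free supplement, GlutaMAX and penicillin-streptomycin, so that it differed from UF-dFBS in basal medium and supplement as well as in serum. Unfiltered serum (FBS), ultracentrifuged serum (UC-dFBS) and a commercial EV-depleted serum (SBI-dFBS), with 2 samples of each, are given as background. FBS-1 and UC-dFBS-1 held the same Sigma-Aldrich serum as UF-dFBS-1. FBS-2 and UC-dFBS-2 held the same Gibco serum as UF-dFBS-2, so that only SBI-dFBS was from other sera. None of the media had held cells, so that no cell type could be checked, and RNA content per vesicle cannot be told apart from the number of vesicles.

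Most small RNAs in serum travel in vesicles or bound to proteins and lipoproteins. miRNAs guide Argonaute proteins to messenger RNAs, and several are so abundant in 1 tissue that they mark its contribution to blood. tRNAs carry amino acids to the ribosome and are cut into fragments that persist in body fluids, while snRNAs splice messenger RNA, snoRNAs guide the modification of other RNAs and Y RNAs bind the Ro60 protein. Small amounts of RNA can also enter sequencing libraries from reagents and handling.

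Values are spike-in normalized counts, in which the authors divided the counts of each sample by 1 factor fitted to RNA spike-ins. The authors caution that these spike-ins had the size of miRNAs. Levels of the other small ncRNAs, which were mostly longer, are therefore likely to be less accurate. On the listed RNAs StemPRO had 6679 counts, UF-dFBS-1 6867736 and UF-dFBS-2 82513, and the other 6 samples held between 603780 and 5970214. Reads that mapped elsewhere in the genome, were filtered out or did not map are not among these counts. All shares below are of counts on the listed RNAs and not of all reads of a library. The factor was 108 counts per normalized count in StemPRO, 55.2 and 24 in UF-dFBS, and 3.78 to 9.04 in the other samples. A single count was therefore worth 0.00926 normalized counts in StemPRO against 0.0181 and 0.0416 in UF-dFBS, and the threshold of 10 counts stood at 0.0926 in StemPRO. Just inside it were 2 miRNAs and 20 other loci with 10 counts, and just outside it 1 miRNA and 19 other loci with 9 counts. With 1 StemPRO sample no test against UF-dFBS was possible, since 1 value against 2 cannot give a one-sided exact permutation p below 0.333. All 95% intervals below cover counting error only and not the difference between preparations of a medium.

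StemPRO contained less of the main RNA classes than either UF-dFBS sample on the spike-in scale. Its miRNA total was 13.3 (95% interval 12.6 to 14.0), against 76.1 in UF-dFBS-1 and 39.0 in UF-dFBS-2, while its tRNA total was 42.5 (41.3 to 43.7), against 123692 and 3346. For snRNA the values were 4.45 in StemPRO, 528 in UF-dFBS-1 and 17.2 in UF-dFBS-2, but the loci of U4 snRNA alone gave 518 and 7.45 of the UF-dFBS totals. Without U4 the snRNA values were 4.41, 10.4 and 9.74, so that UF-dFBS was 2.36-fold and 2.21-fold above StemPRO, an order that turned by shares, TMM and DESeq2 size factors. UF-dFBS-1 was 2912-fold (2829 to 2998) and UF-dFBS-2 78.8-fold (76.5 to 81.2) above StemPRO for tRNA, and the UF-dFBS samples themselves were 37.0-fold apart. Y RNA was at 0.157 in StemPRO against 40.6 and 31.4, and it was the class furthest below UF-dFBS-2. snoRNA was at 1.38 (1.17 to 1.62) in StemPRO, 5.54 in UF-dFBS-1 and 1.37 in UF-dFBS-2, so that only UF-dFBS-1 was above StemPRO. The 4 piRNA counts in StemPRO were 1 each at 4 loci, and UF-dFBS-1 had 2 counts and UF-dFBS-2 none.

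The shares of miRNA, tRNA, snRNA and snoRNA in StemPRO were on the same side of both UF-dFBS samples, by more than counting error. miRNA made up 21.5% (20.6 to 22.5%, Wilson) of the StemPRO counts, 0.0612% of those of UF-dFBS-1 and 1.14% of those of UF-dFBS-2. tRNA made up 68.7% (67.6 to 69.8%) in StemPRO against 99.5% and 97.4%. snRNA was 7.2% (6.61 to 7.85%) against 0.425% and 0.501%, and snoRNA was 2.23% (1.90 to 2.61%) against 0.00446% and 0.0400%. The Y RNA share of StemPRO, 0.255% (0.159 to 0.407%), lay between those of UF-dFBS-1 (0.0326%) and UF-dFBS-2 (0.914%). Shares and levels thus gave opposite orders for miRNA and snRNA, which were higher in StemPRO as a share of counts and lower by spike-ins. As the log2 ratio of StemPRO to the mean of UF-dFBS, the miRNA total was -2.11 by spike-ins, 5.17 by shares, 0.09 by edgeR's TMM scaling and 0.15 by DESeq2 size factors. The tRNA total was below UF-dFBS under each of these scalings, from -10.55 by spike-ins to -0.52 by shares.

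**Figure D1:**
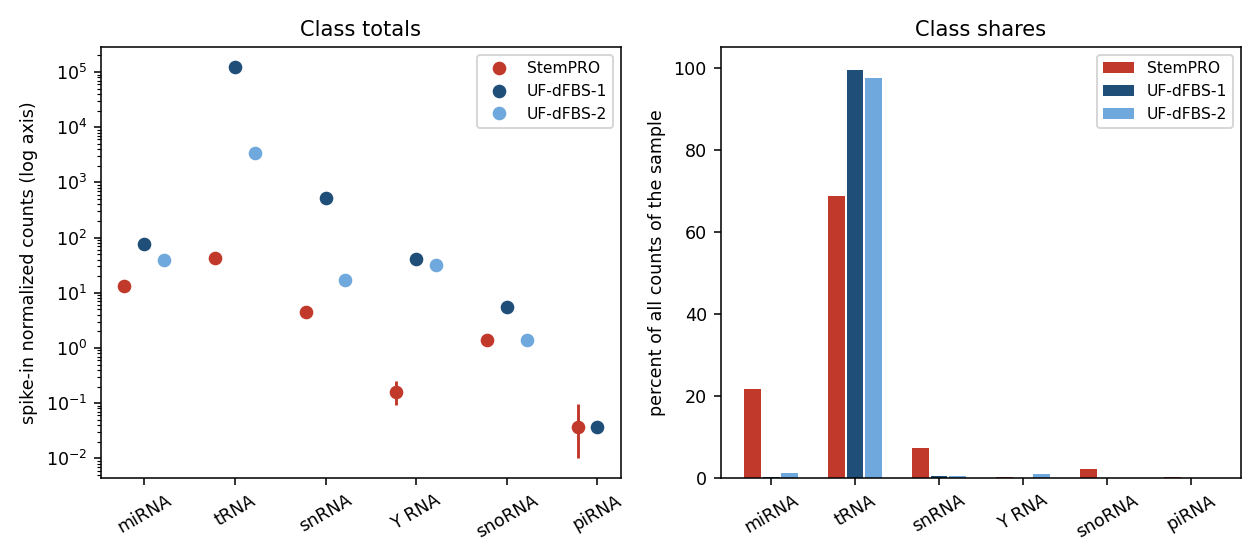
Left, spike-in normalized counts of each RNA class (log axis) in StemPRO and the 2 UF-dFBS samples, 1 point a sample, with bars for the 95% counting interval of StemPRO. Right, the share of each class in the counts of the sample on the listed RNAs, in percent. StemPRO was lowest for miRNA (13.3), tRNA (42.5), snRNA (4.45) and Y RNA (0.157) on the left, while its miRNA share on the right was 21.5% against 0.0612% and 1.14%.

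Among the 23 miRNAs, 5 were above both UF-dFBS samples, 7 lay between them and 11 were below both. Their median log2 ratio to the mean of UF-dFBS was -0.71, beside -1.51 over all 43 miRNAs with 10 counts in any of the 3 samples. At least 2-fold higher than both samples was 1 miRNA (2.33% of the 43), and at least 2-fold lower were 3 of the 23 (46.5% of the 43, or 20). Since the counts of StemPRO chose the 23, these numbers describe them and are no evidence of a shift. The 5 miRNAs above both samples were also above both by shares, raw counts, TMM and DESeq2 size factors. This was fixed in advance, since spike-ins scaled StemPRO down the most relative to each UF-dFBS sample. Of the 11 below both, only 1 was so by raw counts and none by the other 3 scalings. Median log2 ratios of the 23 were 1.35 by TMM and 6.25 by shares, against 0.63 and 5.72 over the 43.

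The most abundant miRNA of StemPRO was hsa-miR-203a, known from the differentiation of epidermal keratinocytes, with 348 counts or 24.2% (22.1 to 26.5%) of the miRNA. Its level was 3.22 in StemPRO, 5.11 and 3.12 in UF-dFBS, 7.02 and 5.37 in FBS, 4.09 and 8.21 in SBI-dFBS, and 3.52 and 3.22 in UC-dFBS. The 9 values lay within 2.63-fold of each other, and UF-dFBS-2 was the lowest. By the authors' account its reads were mainly very short inserts. They propose that it may be an artifact of the experiment, which would account for its detection in every sample, StemPRO included. That was not tested, and insert lengths were not analysed here. hsa-miR-205-5p, another epithelial miRNA, was at 0.555 in StemPRO, 1.12 and 0.749 in UF-dFBS, 0.206 and 1.21 in FBS, 0.995 and 1.06 in SBI-dFBS, and 0.459 and 0.293 in UC-dFBS. StemPRO lay within the range of the serum samples, whose values rested on 1 to 9 counts outside UF-dFBS. hsa-miR-184, abundant in the eye and in epidermis, was at 0.213 in StemPRO and at 0.199 and 0.208 in UF-dFBS, from 23, 11 and 5 counts. In the other 6 samples it ranged from 0.111 to 2.27, with 11 counts in FBS-1 and 1 or 2 in each of the rest.

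The 8 epithelial miRNAs chosen for this comparison, which also include the hsa-miR-200 family, summed to 4.05 in StemPRO against 6.74 and 4.16 in UF-dFBS, and 3 of them had at least 10 counts. They were 30.5% (28.1 to 32.9%) of the miRNA in StemPRO against 8.85% and 10.7% in UF-dFBS. The sum in the other 6 samples was 4.25 to 15.9, so that StemPRO was just below the lowest of them. Most of the sum was hsa-miR-203a, and the other 7 had 90 counts, a level of 0.833 in StemPRO against 1.63 and 1.04. hsa-miR-31-5p was at 0 counts in StemPRO, which allows up to 0.0278 normalized counts, and hsa-miR-141-3p, hsa-miR-200a-3p, hsa-miR-200b-3p and hsa-miR-200c-3p had 1, 3, 1 and 2 counts.

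miRNAs of blood cells formed the next group. hsa-miR-16-5p, which is abundant in red cells, was at 2.02 in StemPRO, 1.07 and 1.21 in UF-dFBS, 869.9 and 459 in FBS, 260.4 and 248 in SBI-dFBS, and 60.4 and 36.2 in UC-dFBS. It was 1.89-fold (1.41 to 2.56) of UF-dFBS-1 and 1.67-fold (1.13 to 2.55) of UF-dFBS-2 in StemPRO, and it was 1 of only 2 miRNAs with both intervals above 1. hsa-miR-486-5p, another red cell miRNA, was at 0.268 in StemPRO, 0.489 and 0.833 in UF-dFBS, 126 and 237 in FBS, 132 and 60.1 in SBI-dFBS, and 10.6 and 17.6 in UC-dFBS. The 2 red cell miRNAs therefore stood on opposite sides of UF-dFBS. The erythroid hsa-miR-451a had 1 count in StemPRO and 6 and 2 in UF-dFBS, although it was at 71.8 and 32.6 in FBS. Summed over 5 red cell miRNAs, StemPRO was at 2.31 against 1.70 and 2.12 in UF-dFBS and 1115 and 745 in FBS. hsa-miR-16-5p, which many tissues express, set this sum, since the other 4 were at 0.296 in StemPRO against 0.634 and 0.916, below both UF-dFBS samples by spike-ins, above both by shares and between them by raw counts, TMM and DESeq2 size factors.

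Among miRNAs of white cells, hsa-miR-142-3p, found across blood cell lineages, was at 0.305 in StemPRO, 0.290 and 0.0833 in UF-dFBS, 2759 and 821 in FBS, 120.0 and 494 in SBI-dFBS, and 192 and 71.7 in UC-dFBS. hsa-miR-223-3p, a miRNA of myeloid cells and platelets, was at 0.287 in StemPRO, 0.489 and 0.624 in UF-dFBS, 308 and 201 in FBS, 3.98 and 6.35 in SBI-dFBS, and 54.6 and 37.5 in UC-dFBS. The first was above both UF-dFBS samples, by little over UF-dFBS-1 and with only 2 counts in UF-dFBS-2, and the second was below both. The 6 miRNAs of white cells and platelets together were at 0.796 in StemPRO against 1.19 and 0.874. hsa-miR-150-5p had 7 counts in StemPRO and none in either UF-dFBS sample.

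hsa-miR-126-3p, the miRNA of endothelial cells, was the 1 miRNA of the 23 at least 2-fold above both UF-dFBS samples. Its level was 0.629 in StemPRO, 0.235 and 0.167 in UF-dFBS, 2116 and 1196 in FBS, 111 and 155 in SBI-dFBS, and 320.0 and 155 in UC-dFBS. The counts were 68 in StemPRO, 13 in UF-dFBS-1 and 4 in UF-dFBS-2, which gave ratios of 2.67 (1.46 to 5.28) and 3.78 (1.41 to 14.3). Its other arm, hsa-miR-126-5p, had 7 counts in StemPRO and 0 in both UF-dFBS samples. Of the smooth muscle pair, hsa-miR-143-3p had 1 count in StemPRO against 12 and 1, and hsa-miR-145-5p had 0 against 68 and 1. The 4 vascular miRNAs thus did not share a position, and their sum of 0.703 in StemPRO lay between 1.68 and 0.25.

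The let-7 family, expressed in most tissues and among the leading miRNAs of serum, had 5 of its 9 listed members among the 23. hsa-let-7a-5p was at 0.611 in StemPRO, 0.670 and 0.874 in UF-dFBS, 2755 and 1669 in FBS, 130.1 and 352 in SBI-dFBS, and 381 and 178 in UC-dFBS. hsa-let-7b-5p was at 0.518 in StemPRO, 2.08 and 2.62 in UF-dFBS, 1740.3 and 952 in FBS, 219 and 318 in SBI-dFBS, and 323 and 183 in UC-dFBS. In StemPRO the former did not differ from either UF-dFBS sample beyond counting error, with ratios of 0.912 (0.601 to 1.4) and 0.699 (0.422 to 1.20). hsa-let-7b-5p had the lowest ratios of the 23, at 0.249 (0.178 to 0.345) and 0.198 (0.135 to 0.288), and it was the 1 miRNA that was also below both samples by raw counts. hsa-let-7f-5p and hsa-let-7i-5p followed in level. hsa-let-7f-5p was at 0.426 in StemPRO, 0.344 and 1.04 in UF-dFBS, 1892 and 1224 in FBS, 76.1 and 249.9 in SBI-dFBS, and 223 and 104 in UC-dFBS. hsa-let-7i-5p was at 0.278 in StemPRO, 0.652 and 0.50 in UF-dFBS, 885 and 365 in FBS, 98.5 and 191 in SBI-dFBS, and 123 and 69.5 in UC-dFBS. Together with hsa-let-7c-5p at 0.176 against 0.163 and 0.416, 3 of the 5 members were below both UF-dFBS samples and 2 lay between them on the spike-in scale, and none of the 3 was below both by shares, TMM or DESeq2 size factors. The sum of the 9 listed members was 2.06 in StemPRO against 4.0 and 5.70, a share of 15.5% (13.7 to 17.5%) of miRNA in StemPRO against 5.26% and 14.6%.

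hsa-miR-21-5p, expressed in many cell types, was at 0.454 in StemPRO, 1.14 and 0.791 in UF-dFBS, 850.3 and 258 in FBS, 93.1 and 233 in SBI-dFBS, and 134 and 64.5 in UC-dFBS. hsa-miR-1, a miRNA of heart and skeletal muscle, was at 0.194 in StemPRO against 0.489 and 0.749, and the other 5 muscle miRNAs had no counts in StemPRO. hsa-miR-26b-5p, at 0.194 against 0.0362 and 0.125, was above both samples, but from 2 and 3 counts in UF-dFBS. Of the 5 not yet named, hsa-miR-26a-5p, hsa-miR-101-3p and hsa-miR-125b-5p lay between the UF-dFBS samples and hsa-miR-23a-3p and hsa-miR-92a-3p below both, with 0.102 to 0.25 in StemPRO. The last 2 miRNAs inside the threshold, hsa-miR-103a-3p and hsa-miR-23b-3p, stood at 0.0926. Just outside it were hsa-miR-125a-5p with 9 counts and hsa-miR-142-5p and hsa-miR-27b-3p with 8 each.

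The liver miRNAs were where StemPRO and UF-dFBS were furthest apart. hsa-miR-122-5p, made by hepatocytes, was the leading miRNA of UF-dFBS, with 46.0 and 16.2 or 60.4% and 41.5% of the miRNA. In StemPRO it had 7 counts, a level of 0.0648 and 0.487% (0.236 to 1.00%) of the miRNA. The 3 liver miRNAs summed to 0.102 in StemPRO against 46.3 and 16.2, a log2 ratio of -8.26 to the mean of UF-dFBS. The ratio was -0.63 by shares, where StemPRO lay between the 2 samples, and StemPRO was below both by raw counts, TMM and DESeq2 size factors. hsa-miR-1246, a name whose sequence overlaps U2 snRNA, had 7 counts in StemPRO and hsa-miR-4532, which overlaps rRNA, had none.

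**Figure D2:**
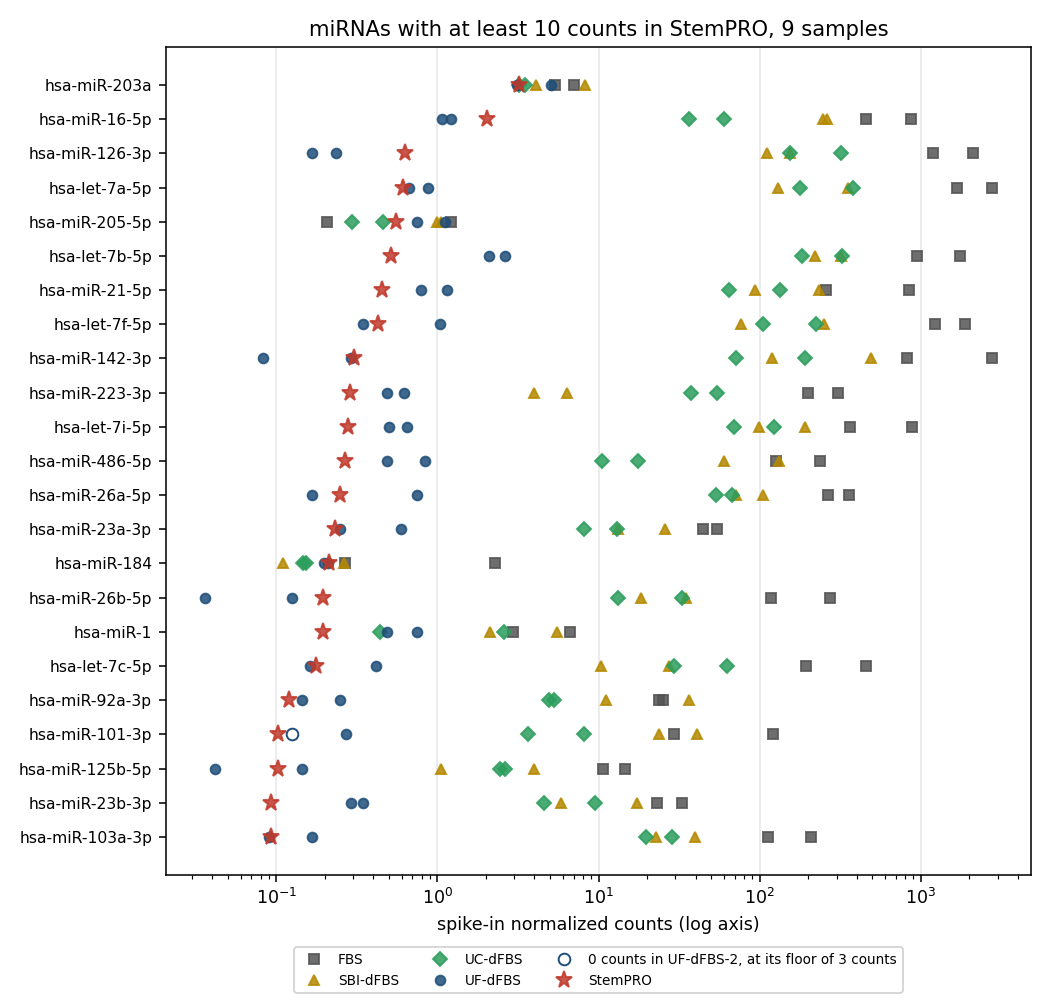
Spike-in normalized counts (log axis) of the 23 miRNAs with at least 10 counts in StemPRO, 1 point for each of 9 samples and 1 colour and shape for each medium. hsa-miR-203a lay within a narrow band in all media, while hsa-miR-205-5p spread more widely, from few counts outside UF-dFBS. hsa-miR-126-3p was higher in StemPRO (0.629) than in UF-dFBS (0.235 and 0.167), and across the 23 the median ratio of FBS to StemPRO was 887-fold.

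Most of the 166 other loci were below both UF-dFBS samples on the spike-in scale. Of the 155 tRNA loci, 25 were above both samples, 27 between and 103 below both, with a median log2 ratio of -4.13 beside -4.21 over the 303 tRNA loci with 10 counts in any of the 3 samples. Against UF-dFBS-1 alone the median of the 155 was -4.94 and against UF-dFBS-2 alone -0.89. Among all 166 loci, 20 were at least 2-fold higher than both samples and 72 at least 2-fold lower. Of the 349 loci with 10 counts in any of the 3 samples, 20 (5.73%) were higher and 201 (57.6%) lower. Counting intervals lay above 1 for both samples at 9 of the 166 loci and below 1 at 63. Placement of reads that fit several tRNA genes was not given in the methods, so that single tRNA loci are uncertain. Sums over the loci of an isoacceptor, that is all genes with 1 anticodon, are used below. Loci annotated as pseudogenes, by anticodon, and the SupTTA locus form groups of their own and are counted among the isoacceptors.

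tRNA counts in StemPRO were spread over many isoacceptors. The leading 3 held 27.8% of its tRNA counts, against 73.1% in UF-dFBS-1 and 93.5% in UF-dFBS-2, and in StemPRO they were those for aspartate (GTC), glycine (TCC) and lysine (TTT). The inverse of the summed squared shares, which counts how many isoacceptors of equal share would be as spread, was 22.3 in StemPRO, 4.40 in UF-dFBS-1 and 1.54 in UF-dFBS-2. Of 52 isoacceptors with at least 10 counts in StemPRO, 4 were above both UF-dFBS samples and 41 below both. The 4 were above both under every scaling tried. That too was fixed in advance, because spike-ins scaled StemPRO down the most relative to each UF-dFBS sample. Of the 41, only 4 were still below both by shares, 12 by raw counts, 16 by TMM and 15 by DESeq2 size factors.

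Glycine (TCC) and asparagine (GTT) were the large isoacceptors above both samples. Glycine (TCC), with 9 loci that all had at least 10 counts, was at 3.81 in StemPRO, 1.59 and 0.50 in UF-dFBS, 54.7 and 13.5 in FBS, 9.95 and 65.4 in SBI-dFBS, and 30.9 and 14.5 in UC-dFBS. Its ratios to UF-dFBS were 2.39 (1.90 to 3.05) and 7.63 (4.32 to 14.9). Asparagine (GTT) was at 2.28 in StemPRO, 0.634 and 1.04 in UF-dFBS, 4.34 and 1.48 in FBS, 5.86 and 4.50 in SBI-dFBS, and 1.38 and 1.61 in UC-dFBS. StemPRO was above 5 of the 8 serum samples, and its ratios to UF-dFBS were 3.59 (2.51 to 5.28) and 2.19 (1.45 to 3.45). The other 2 isoacceptors above both were annotated as pseudogenes, with anticodons CAC (0.370 against 0.0905 and 0.167) and TGC (0.194 against 0.127 and 0.0416).

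The single loci with the highest ratios belonged to these groups. tRNA10-GlyTCC (GRCh37 chr17:8124866-8124937, plus strand) was at 0.611 in StemPRO against 0.0362 and 0.0833, from 66, 2 and 2 counts. tRNA45-GlyTCC (chr1:161500903-161500974, plus strand) had 65, 7 and 1 counts, tRNA70-GlyTCC (chr1:161439547-161439618, minus strand) 43, 3 and 1, tRNA82-GlyTCC (chr1:161409961-161410032, minus strand) 22, 2 and 0, and tRNA7-AsnGTT (chr13:31248101-31248174, minus strand) 18, 0 and 1. All 5 rested on fewer than 10 counts in each UF-dFBS sample, which leaves wide intervals, as in the 7.34-fold (1.95 to 61.8) ratio of tRNA10-GlyTCC to UF-dFBS-2.

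The most counted tRNA loci of StemPRO were not its most enriched. tRNA3-ProTGG (chr14:21101165-21101236, plus strand) had 140 counts and a level of 1.30 in StemPRO, 7.35 and 2.58 in UF-dFBS, 14.5 and 6.98 in FBS, 17.0 and 45.0 in SBI-dFBS, and 12.7 and 6.16 in UC-dFBS. tRNA5-AspGTC (chr12:98897281-98897352, plus strand) had 137 counts and was at 1.27 in StemPRO, 13.8 and 3.16 in UF-dFBS, 306 and 123 in FBS, 42.6 and 219 in SBI-dFBS, and 56.3 and 17.0 in UC-dFBS. StemPRO was the lowest of the 9 samples for both. tRNA11-LysTTT (chr11:122430655-122430727, plus strand) and tRNA23-LysTTT (chr16:73512216-73512288, minus strand) had 72 and 68 counts, and their levels of 0.666 and 0.629 were below both UF-dFBS samples and above UC-dFBS-2 (0.293 for each). As sums, aspartate (GTC) was at 4.33 in StemPRO against 117 and 16.8, lysine (TTT) at 3.64 against 352 and 5.29, and proline (TGG) at 1.88 against 22.0 and 4.04.

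The tRNAs that dominate serum were at the other extreme. Glycine (CCC) was at 1.43 in StemPRO, 46792 in UF-dFBS-1 and 2669 in UF-dFBS-2, and it was 3.36% of the tRNA counts of StemPRO against 37.8% and 79.8%. Histidine (GTG) was at 0.555 in StemPRO against 26144 and 377, and none of its 11 loci reached 10 counts. Valine (CAC) was at 1.93 against 17541 and 19.9, so that UF-dFBS-1 was 9068 times and UF-dFBS-2 10.3 times the StemPRO value. Glycine (CCC) and histidine (GTG) were below both UF-dFBS samples under every scaling, shares included, whereas valine (CAC) lay between the samples by shares. Among loci with at least 10 StemPRO counts, the lowest log2 ratios were -15.45 at tRNA27-GlyCCC (chr2:70476123-70476193, minus strand) and -15.36 at tRNA34-GlyCCC (chr16:686736-686806, minus strand), with 29 and 32 counts in StemPRO. Next among them came tRNA5-ValAAC (chr5:180596610-180596682, plus strand), tRNA2-ValAAC (chr3:169490018-169490090, plus strand) and tRNA10-ValCAC (chr5:180649395-180649467, minus strand), each with 12 counts in StemPRO and ratios from -13.31 to -13.25.

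**Figure D3:**
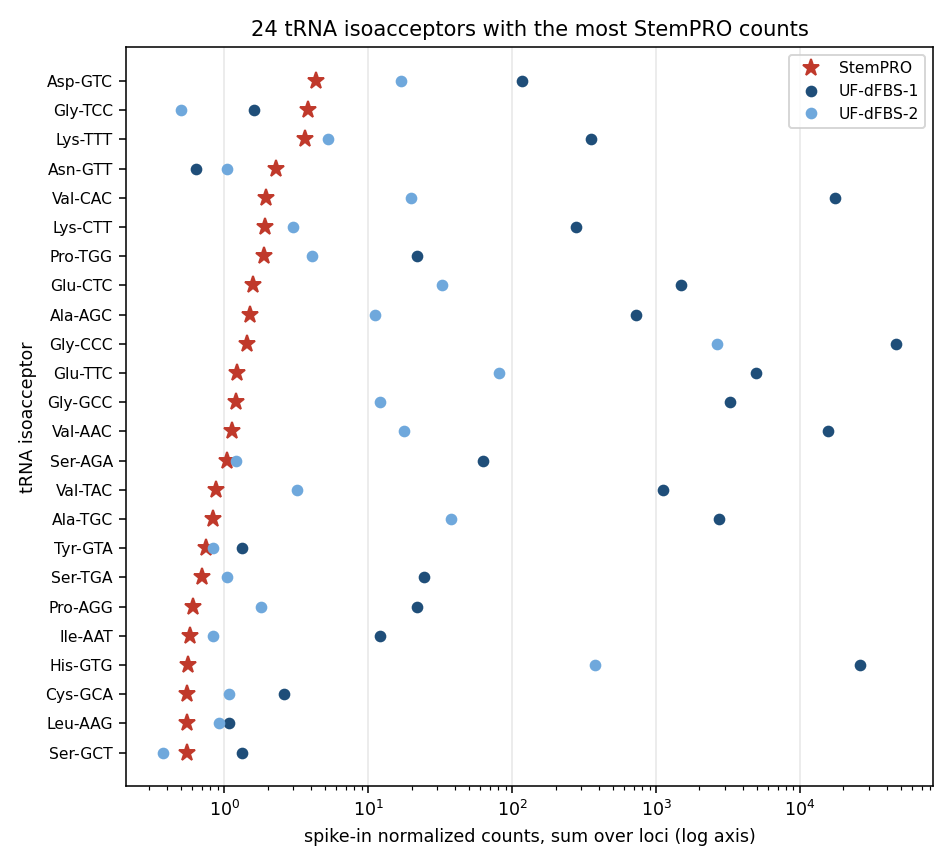
Spike-in normalized counts (log axis), summed over the loci of each of the 24 tRNA isoacceptors with the most StemPRO counts, in StemPRO and the 2 UF-dFBS samples. StemPRO was to the right of both UF-dFBS points only for Gly-TCC (3.81) and Asn-GTT (2.28), while the UF-dFBS-1 point lay furthest to its right for His-GTG (26144) and the UF-dFBS-2 point for Gly-CCC (2669).

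Among snRNAs, 3 of the 10 loci were above both UF-dFBS samples, 4 between and 3 below both, with a median log2 ratio of -0.34 beside -3.03 over 31 snRNA loci. Only 26.6% of the snRNA counts of StemPRO fell on these 10 loci, since many copies had a few counts each. Summed by type, U2, which recognises the branch point in splicing, was at 1.66 in StemPRO, 4.45 and 2.62 in UF-dFBS, and 72.8 to 174 in the other 6 samples. U1, which recognises the start of the intron, was at 1.16 against 0.905 and 3.37, and U6 at 0.963 against 2.37 and 1.29, so that U1 of StemPRO lay between the UF-dFBS samples. U5 was at 0.50 against 0.579 and 0.125 and ranged from 0.440 to 2.68 in the other 6 samples. U4, which enters the spliceosome paired with U6, was furthest apart, with 4 counts or 0.0370 in StemPRO against 518 and 7.45, a log2 ratio of -12.79. It was 0.832% of the snRNA counts of StemPRO, 98.0% of those of UF-dFBS-1 and 43.3% of those of UF-dFBS-2. U12 and U11, of the minor spliceosome, were at 0.0926 against 1.67 and 1.62 and at 0.0370 against 0.398 and 0.624. U2 and U6 were below both samples by spike-ins but above both by shares, TMM and DESeq2 size factors.

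Copies of U2 were 6 of the 10 snRNA loci. U2.25-201 (chr14:70827609-70827805, plus strand) had 18 counts in StemPRO, 8 in UF-dFBS-1 and none in the other 7 samples, where 3 counts would equal 0.125 to 0.794 in single samples. Pooled over the 6 samples of the other sera it had 0 counts where 6.41 would match the StemPRO level of 0.167, which limits their level to 0.639 of that of StemPRO. RNU2-4P-201 (chr17:41464594-41464785, minus strand) had 16 counts and was at 0.148 against 0.380 and 0.167. RNU2-6P-201 (chr13:46948536-46948725, minus strand), at 0.139 against 0.253 and 0.0833, was at 6.27 to 15.6 in the other 6 samples, unlike U2.12-201 (chr10:103124602-103124792, minus strand), at 0.139 against 0.0724 and 0 and at no more than 1.48 elsewhere. RNU5E-1-201 (chr1:11968209-11968328, plus strand), with 13 counts in StemPRO, 1 in UF-dFBS-1 and 0 in UF-dFBS-2, had the highest log2 ratio of all 166 loci, 3.73. Its ratio to UF-dFBS-1 was 6.65 with an interval from 0.998 to 282.

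The snoRNA of StemPRO was mostly 1 RNA. SCARNA17-201 (chr18:47340503-47340646, plus strand), a small Cajal body RNA of the class that guides the modification of snRNAs, had 101 counts, which were 67.8% (59.9 to 74.8%) of the snoRNA in StemPRO against 13.7% and 33.3% in UF-dFBS. Its level was 0.935 in StemPRO, 0.760 and 0.458 in UF-dFBS, 0.619 and 0.268 in FBS, 0.774 and 0 in SBI-dFBS, and 0.612 and 1.03 in UC-dFBS. UC-dFBS-2 was the only sample above StemPRO, from 7 counts. The next snoRNAs, SNORD112.18-201 and SNORD80-201, had 4 counts each, and SNORD80-201 had none in any serum sample. Y_RNA.53-201 with 7 counts and Y_RNA.17-201 with 4 were the leading Y RNA loci.

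**Figure D4:**
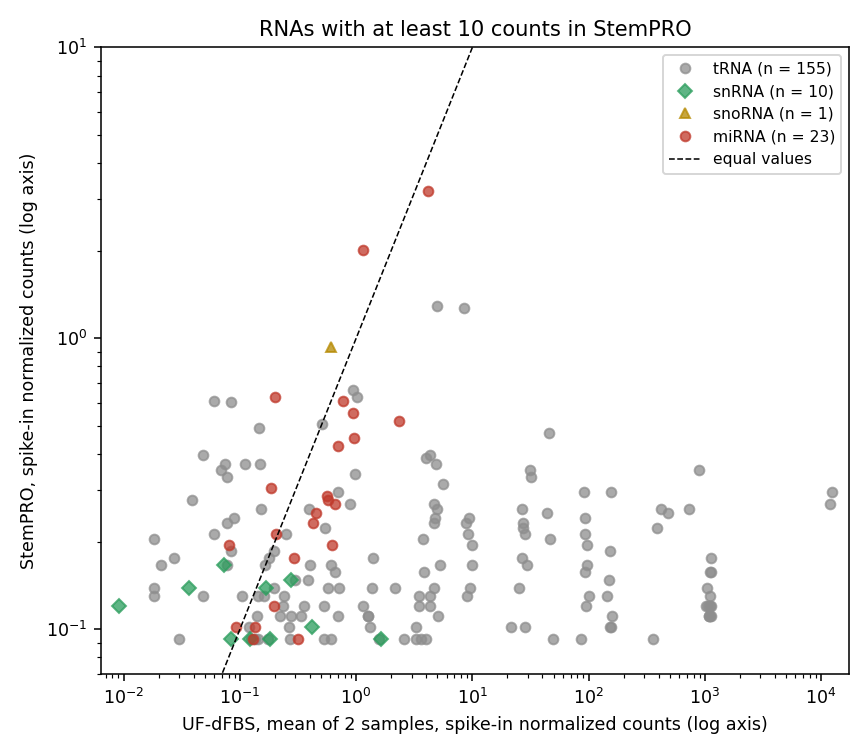
Spike-in normalized counts of the 189 RNAs in StemPRO against the mean of the 2 UF-dFBS samples (both log axes), 1 point for each RNA and 1 colour for each class, with a dashed line at equal values. StemPRO values spanned from 0.0926 to 3.22 while log2 ratios to the UF-dFBS mean ranged from -2.18 to 1.65 for miRNAs and from -15.45 to 3.73 for the other RNAs.

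StemPRO was included as a control without serum, which allows its RNAs to be sorted by whether all samples held them at a like level or whether they scaled with the serum. An RNA at the same spike-in normalized level in every sample would have 917725 StemPRO counts for every 1e6 counts in the other 8 samples. The 23 miRNAs ranged from 1364 (hsa-miR-142-3p) to 696970 (hsa-miR-184), a 511-fold span with a median of 7508. Of the 155 tRNA loci the lowest was tRNA27-GlyCCC at 7.97, with a median of 12690.4 over the tRNA loci, and hsa-miR-122-5p was at 24.9. Near 917725 were hsa-miR-184, hsa-miR-203a (639706), hsa-miR-205-5p (555556) and SCARNA17-201 (1328950), and single tRNA loci reached 3166670.

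**Figure D5:**
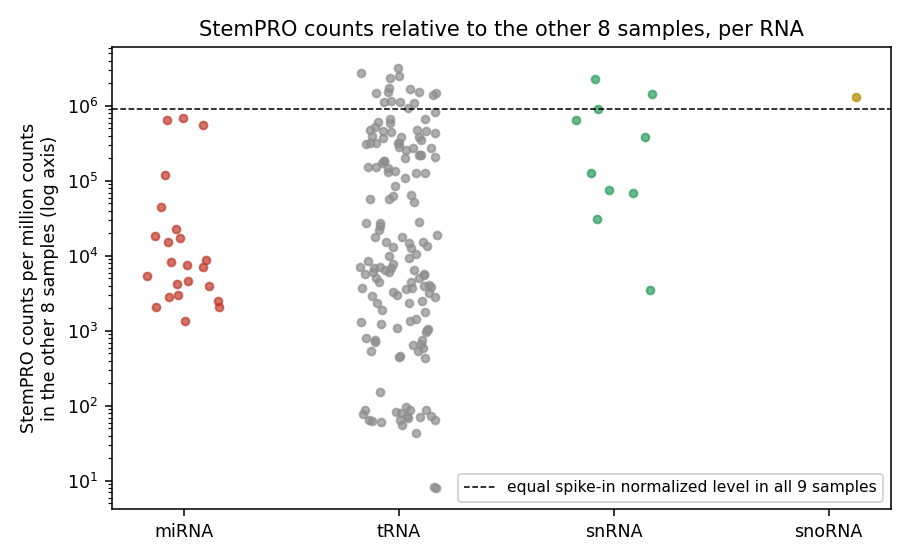
StemPRO counts for every 1e6 counts in the other 8 samples (log axis) for each of the 189 RNAs, by class, with a dashed line at the value of an RNA with an equal spike-in normalized level in all 9 samples (917725). Points of miRNA spread over 511-fold below the line, and tRNA loci reached from 7.97 to above it.

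The pooled level of the 6 serum samples other than UF-dFBS was also set against that of StemPRO. It lay within 2-fold of StemPRO for 2 of the 23 miRNAs, which were 4.65% of the 43. The same held for 24 of the 166 other loci, beside 25 (7.16%) of the 349. These 24 were 21 tRNA, 2 snRNA and 1 snoRNA. For hsa-miR-203a the level of StemPRO would give 124 counts in the 6 samples, and 187 were found, a ratio of 1.51 (1.26 to 1.81). hsa-miR-205-5p had 28 counts where 21.4 would match StemPRO, a ratio of 1.31 (0.805 to 2.09), and SCARNA17-201 had 23 where 36.0 would match, a ratio of 0.639 (0.388 to 1.01). hsa-miR-184 was just past 2-fold, with 17 counts where 8.19 would match, and 11 of the 17 were from FBS-1. The median ratio of the 23 miRNAs was 373 and that of the 166 other loci 124.

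Most RNAs with such like levels were low. hsa-miR-203a was the 1 RNA of these 26 with more than 3 counts in each of the 9 samples, whereas 16 of the 23 miRNAs and 83 of the 166 loci passed 3 counts in all samples. Of the 21 tRNA loci, 8 were for asparagine (GTT), and they had 15 to 40 counts in StemPRO. UF-dFBS was within 2-fold of StemPRO in both samples for 1 of the 2 miRNAs and 4 of the 24 loci. Extraction and library reagents as a source were not tested, and no library made without medium was analysed here.

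The profile of the 23 miRNAs in StemPRO was nearest to that of UF-dFBS. As log2 shares with 0.5 counts added, Pearson's r across the 23 was 0.73 with UF-dFBS-1 and 0.69 with UF-dFBS-2, and 0.15 to 0.31 with the other 6 samples, while UF-dFBS-1 and UF-dFBS-2 correlated at 0.70. Across the 166 other loci r was -0.02 with UF-dFBS-1 and 0.18 with UF-dFBS-2, although those 2 samples correlated at 0.79. These coefficients are across RNAs, which are not independent replicates, and the RNAs were chosen by their counts in StemPRO. UF-dFBS-1 had at least 10 counts for 18 of the 23 miRNAs, which were 47.4% of its own 38, and UF-dFBS-2 for 12, which were 85.7% of its 14. For the other loci the shared numbers were 130 (78.3% of the 166 and 41.5% of the 313 of UF-dFBS-1) and 71 (42.8% of the 166 and 58.7% of the 121 of UF-dFBS-2).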

How the data were processed

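RNA from EV preparations of 9 media samples had been sequenced with the QIAseq miRNA kit, which tags molecules with unique indices. Per the submitters' processing notes and the methods of the study, the authors used bcl2fastq, trimmed with cutadapt 1.11, mapped with Bowtie2 2.2.2 to spike-ins, miRBase and GRCh37, and deposited counts per RNA, in which reads of the same full index and insert were collapsed. Libraries had been pooled in equal amounts before sequencing. The deposited signal values are spike-in normalized counts, the counts of a sample divided by 1 factor from a line through zero fitted to the spike-ins. The error of that fit was not used here, and the volume of medium extracted is stated differently in the records and the methods. Bovine reads appear under human names. By the authors' account, a smaller part of the human miRNA reads mapped to bovine miRNAs in StemPRO than in the serum media. The authors propose that more of the StemPRO reads may be experimental noise and not miRNA, which was not tested here. No reagent or basal medium library was used here.

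From these files, RNAs with at least 10 StemPRO counts were selected, and values were compared with each UF-dFBS sample by ratios with exact conditional binomial intervals, by exact Poisson intervals and by Wilson intervals of shares (95%), all for counting error only. A count of 0 was taken to allow 3 counts. "Higher" or "lower" calls needed 2-fold beyond both samples. UF-dFBS-1 and -2 came from sera of 2 suppliers, so their spread holds that difference. The tools were Python 3.11.15, pandas 2.3.3, scipy 1.17.1, R 4.3.3, edgeR 4.0.16 (TMM) and DESeq2 1.42.0 (size factors); the interval and selection code was tested on simulated data. Alternatives were other scalings, count minimums of 5, 20 and 1, pseudocounts of 0.01 and 0.1, each UF-dFBS sample left out, loci with identical counts taken once, and removal of the leading RNAs, of which leaving out U4, hsa-miR-16-5p and hsa-miR-203a was chosen after seeing the data. The RNAs, lists and rules were chosen with earlier results of these data known.

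RNAs were named by rule: the 12 miRNAs with the most StemPRO counts in every sample, the leading 6 tRNA, 4 snRNA, 4 snoRNA, 3 Y RNA and 3 piRNA loci, the 5 highest and 5 lowest ratios of each table, the 5 most abundant RNAs of UF-dFBS, those next to the threshold, and the miRNA lists by tissue. Others, and the 2-fold comparison with the 6 other samples, were chosen after their values were seen.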

Additional observations from a re-analysis of the deposited data

How the results depend on the processing

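In 97 recomputations of the main results under other settings, 47 values stayed within the limits set, 37 moved and 13 changed sign. For class totals the limit was the SD of the log2 totals of the 2 UF-dFBS samples. It was wide for tRNA (3.68) and snRNA (3.49). A tRNA ratio of -7.58 by DESeq2 size factors, against -10.55 by spike-ins, thus counted as within the limit. With at least 5 counts 38 miRNAs and 288 other loci were selected, and with at least 20 counts 64 loci. The log2 ratio of the miRNA total to UF-dFBS (-2.11) was 5.17 by shares, -0.84 by raw counts, 0.0857 by TMM and 0.15 by DESeq2 size factors. It ranged from -2.52 to -1.55 when a UF-dFBS sample was left out, and was -2.41 without hsa-miR-203a, an alternative chosen after seeing the data. The tRNA ratio (-10.55) was -0.52 by shares, and -6.30 without UF-dFBS-1 and -11.51 without UF-dFBS-2. For snRNA (-5.94), shares gave 3.96, and leaving out a UF-dFBS sample gave -6.89 to -1.95. It was -1.19 without U4, also chosen after seeing the data. For snoRNA (-1.33), shares gave 6.65, TMM 1.13 and DESeq2 size factors 1.21, with 0.00545 without UF-dFBS-1 and -2.01 without UF-dFBS-2. miRNAs above both UF-dFBS samples (5) numbered 23 by shares, 14 by raw counts, 19 by TMM and by DESeq2 size factors, 11 with at least 5 counts, 36 with at least 1 count, and 8 to 9 against a single UF-dFBS sample. Other loci above both (29) numbered 140 by shares, 45 by raw counts, 65 by TMM, 66 by DESeq2 size factors, 17 with at least 20 counts, 196 with at least 1 count, and 32 to 57 against a single UF-dFBS sample. The median log2 ratio of the miRNAs (-0.71) was 6.25 by shares, 0.89 by raw counts, 1.35 by TMM, 1.41 by DESeq2 size factors, -0.61 with at least 5 counts, -1.53 with at least 1 count and -0.66 to -0.52 against a single sample. That of the other loci (-3.60) was 5.29 by shares, -0.95 by TMM, -0.85 by DESeq2 size factors and -4.34 to -0.85 against a single sample. Without the leading RNA of each class, the StemPRO shares were 17.97% for miRNA and 73.38% for tRNA.

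No paired analysis was possible, because StemPRO has 1 sample and no serum, whereas the UF-dFBS sample numbers stand for the serum suppliers. StemPRO values are imprecise where counts are few, since 10 counts leave an interval of 0.0444 to 0.170 around a level of 0.0926. Spike-in scaling decided the position below both UF-dFBS samples for most of the miRNAs and tRNA isoacceptors found there. For the other loci the median log2 ratio stayed negative by raw counts (-2.54), TMM (-0.95) and DESeq2 size factors (-0.85). It turned only by shares (5.29). The spike-in counts themselves were not analysed here.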
